A study of Mus musculus with 12 samples.

Results

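Fatty acid synthesis and oxidation were followed through 35 genes, taken as every row of both deposited count tables whose symbol is on a list of enzymes and carriers of the pathway. All 35 were found once, among 55450 genes, and all 35 passed the filter on low counts in every comparison. They comprise 12 genes of synthesis, elongation and desaturation, 4 of fatty acid activation, 4 of the carnitine shuttle and its control, and 15 of mitochondrial beta-oxidation and electron transfer. The study sequenced RNA from positively selected naive mouse CD4 T cells of 2 genotypes, wild type (WT) and Pkm2 knockout (KO), Pkm2 being the M2 isoform of pyruvate kinase, a glycolytic enzyme. All cells received human interleukin 7 (IL7, 25 ng/mL), a survival cytokine, and resting cells received nothing else. Stimulated cells were also plated on bound antibodies to CD28 (2 ug/mL) and CD3 (1 ug/mL), which stand in for antigen and costimulation. The culture time is given as 24 h in the series' text and as overnight in the treatment labels. The source is called splenocytes in the sample labels, and the series' text adds lymph nodes. The 4 groups, WT resting, KO resting, WT stimulated and KO stimulated, hold 3 libraries each. The labels give neither the allele nor any driver of it, nor the age of the animals, and do not tie the 3 libraries of a group to different animals. The p-values below therefore reflect library-to-library spread, which could be technical.

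Fatty acids are built in the cytosol from acetyl-CoA. Acetyl-CoA carboxylase turns it into malonyl-CoA, fatty acid synthase (Fasn) assembles palmitate, and elongases and desaturases of the endoplasmic reticulum lengthen the chain and add double bonds. Breakdown runs in the mitochondrial matrix: an acyl-CoA synthetase activates the fatty acid, the carnitine shuttle carries it across the inner membrane, and rounds of dehydrogenation, hydration, a second oxidation and thiolysis release acetyl-CoA. Malonyl-CoA inhibits Cpt1a, the entry enzyme of the shuttle, which ties the opposing routes together. Activated T cells are known for making fatty acids for new membranes, and resting and memory T cells for relying more on oxidation.

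Levels are given as CPM, each count divided by the TMM-normalized size of its library, in the order of libraries 1, 2 and 3 of a group. Fold changes are on the log2 scale with their standard error, and a gene was called when its Benjamini-Hochberg adjusted p from edgeR's quasi-likelihood test across all tested genes was under 0.05. Depth was high and even, at 63266477 to 76891786 counts per library. Pkm, the targeted gene, had a KO to WT log2 difference of -1.303 ± 0.08 at rest (edgeR adjusted p = 0.0041) and -1.23 ± 0.03 after stimulation (edgeR adjusted p = 1.4e-08), and leaving out KO resting library 2 or 3 gave an adjusted p of 0.076 or 0.097 at rest. These gene-level counts sum the M1 and M2 isoforms. Summed CD4 T cell markers (11 genes, none at 0) came to 5242 to 6240.1 CPM at rest and 2709 to 2839 after stimulation. Markers of other cells were present as well. Those of B cells, myeloid cells, neutrophils, dendritic cells, platelets, CD8 T cells and gamma-delta T cells were higher in every resting than in every stimulated library. The 13 B cell genes summed to 2359 to 4359 CPM at rest against 511 to 1146 after stimulation, and the 16 myeloid genes to 1686 to 5719 against 58.2 to 129.5. The 7 NK cell genes summed to 96.1 to 129 CPM at rest and 99.9 to 177 after stimulation, and the 9 erythroid genes overlapped between the conditions too. Sex-linked transcripts separated the conditions too, with 0.0577 to 0.0971 CPM of Xist at rest and 822 to 1015 after stimulation, and with 4 summed Y-linked genes at 384 to 435 CPM at rest and at 0 counts in every stimulated library, which allows up to 0.0390 to 0.0446 CPM (3 counts, counting error only). Stimulation, the sex-linked transcripts and the deposited table, which is separate for each condition, cannot be told apart in any stimulated-to-resting value below. In bulk RNA, fewer cells of a type and less RNA per cell cannot be told apart either.

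In both genotypes the transcript balance of synthesis to oxidation was higher after stimulation. Levels were divided by transcript length and summed over the 12 synthesis, elongation and desaturation genes and over the 15 oxidation and electron transfer genes. The synthesis sum was 149 ± 7.94 CPM per kb in WT resting cells (SD, n = 3) and 309.7 ± 26.5 in WT stimulated cells. In KO cells it was 151 ± 6.88 at rest and 273 ± 11.8 after stimulation. The oxidation sum was higher too, going from 338 ± 10.1 to 475 ± 5.44 CPM per kb in WT and from 327 ± 5.12 to 459 ± 3.36 in KO cells. The oxidation sum stayed the larger of the pair in all 12 libraries. The ratio of the synthesis sum to the oxidation sum was 0.424, 0.436 and 0.465 in the WT resting libraries and 0.439, 0.469 and 0.475 in the KO resting libraries. It reached 0.682, 0.582 and 0.695 in the WT stimulated and 0.597, 0.570 and 0.616 in the KO stimulated libraries, so that stimulated and resting ratios did not overlap in either genotype. Among the stimulated libraries the genotypes overlapped, because WT library 2 lay below 2 of the 3 KO libraries. No test was run on these sums, which are a description of the members.

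**Figure D1:**
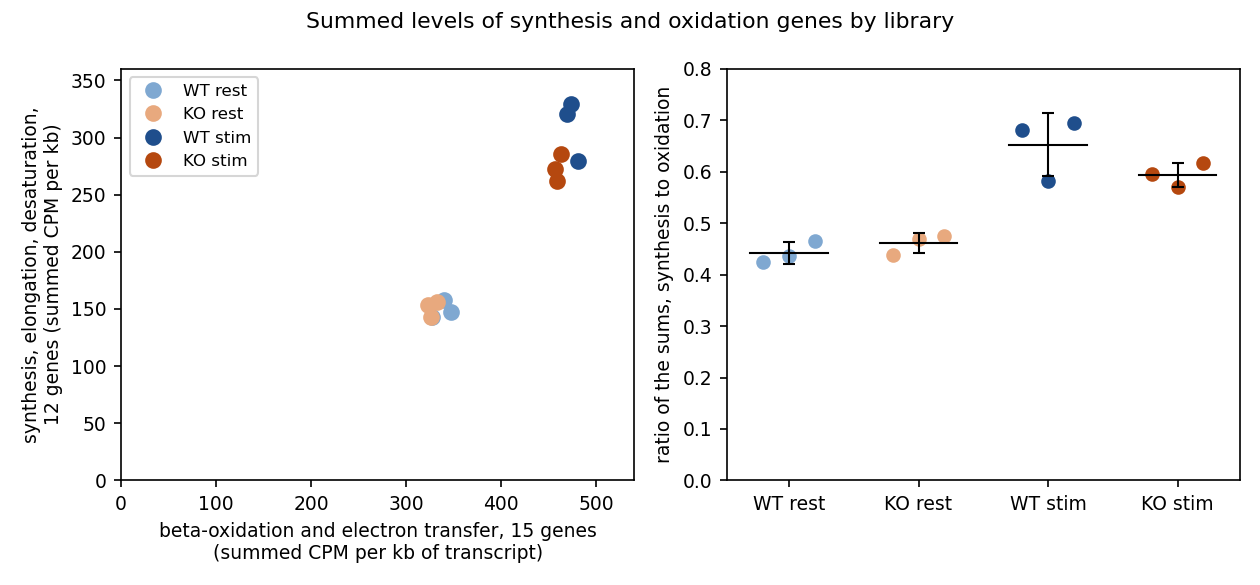
Length-scaled sums of the synthesis and oxidation genes (CPM per kb) and their ratio, 1 point per library, in the 4 groups with group means. Both sums were higher in stimulated than in resting libraries, and the ratio lay between 0.424 and 0.475 at rest and between 0.570 and 0.695 after stimulation.

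A second measure gave every gene the same weight. The mean log2 CPM of the synthesis genes minus that of the oxidation genes was -0.75 ± 0.16 (SD, n = 3) in WT resting and -0.47 ± 0.07 in WT stimulated cells, without overlap. In KO cells it was -0.71 ± 0.21 at rest and -0.53 ± 0.01 after stimulation, where the libraries of the 2 conditions overlapped. With the median over genes in place of the mean, the sign turned in WT stimulated cells, to 0.060 ± 0.076 (SD, n = 3). Their libraries were at 0.136, -0.016 and 0.059, so library 2 did not turn. The KO libraries of the 2 conditions overlapped with the median as well. The genes that made up the synthesis sum changed rank. In resting WT cells Elovl5 supplied 35.7% of it, followed by Scd2 at 17.01%, Elovl1 at 16.6% and Fasn at 10.6%. After stimulation Scd2 (26.0%) and Fasn (23.9%) led in WT cells and Fasn (25.9%) and Scd2 (21.3%) in KO cells. In the oxidation sum Hadhb stood highest at rest, and Etfa stood highest after stimulation with 14.7% in WT and 14.4% in KO cells.

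Between resting and stimulated cells, 31 of the 35 genes were called in WT cells, 23 higher and 8 lower, and 32 in KO cells, 24 higher and 8 lower. Most of the transcriptome moved as well: 84.1% of all tested genes were called in WT (39.3% higher and 44.8% lower) and 82.9% in KO cells (39.6% higher and 43.2% lower). The number of members called was thus close to the background, and the direction differed from it, with a median log2 change of 0.61 in WT and 0.56 in KO cells against -0.14 and -0.11 over all tested genes. The libraries of the 2 conditions did not overlap for 33 members in WT and 32 in KO cells, against 84.7% and 86.7% of all tested genes. The synthesis genes divided into large rises and large falls, 7 higher and 4 lower in each genotype, with a median of 1.21 in WT and 1.21 in KO cells. The oxidation genes moved less, with 10 higher and 2 lower in WT and 11 higher and 2 lower in KO cells, and medians of 0.59 and 0.55. Replacing TMM by DESeq2 size factors left every member's call as it was in both genotypes, and scaling by total counts alone shifts the median of all genes to -0.31 in WT and -0.29 in KO cells, from -0.10 and -0.08 with TMM, all on log2(CPM + 0.5). Under total counts every log2 change moves by -0.34 in WT and -0.33 in KO cells, which turns the direction of Acadm in KO cells and of no other called member.

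**Figure D2:**
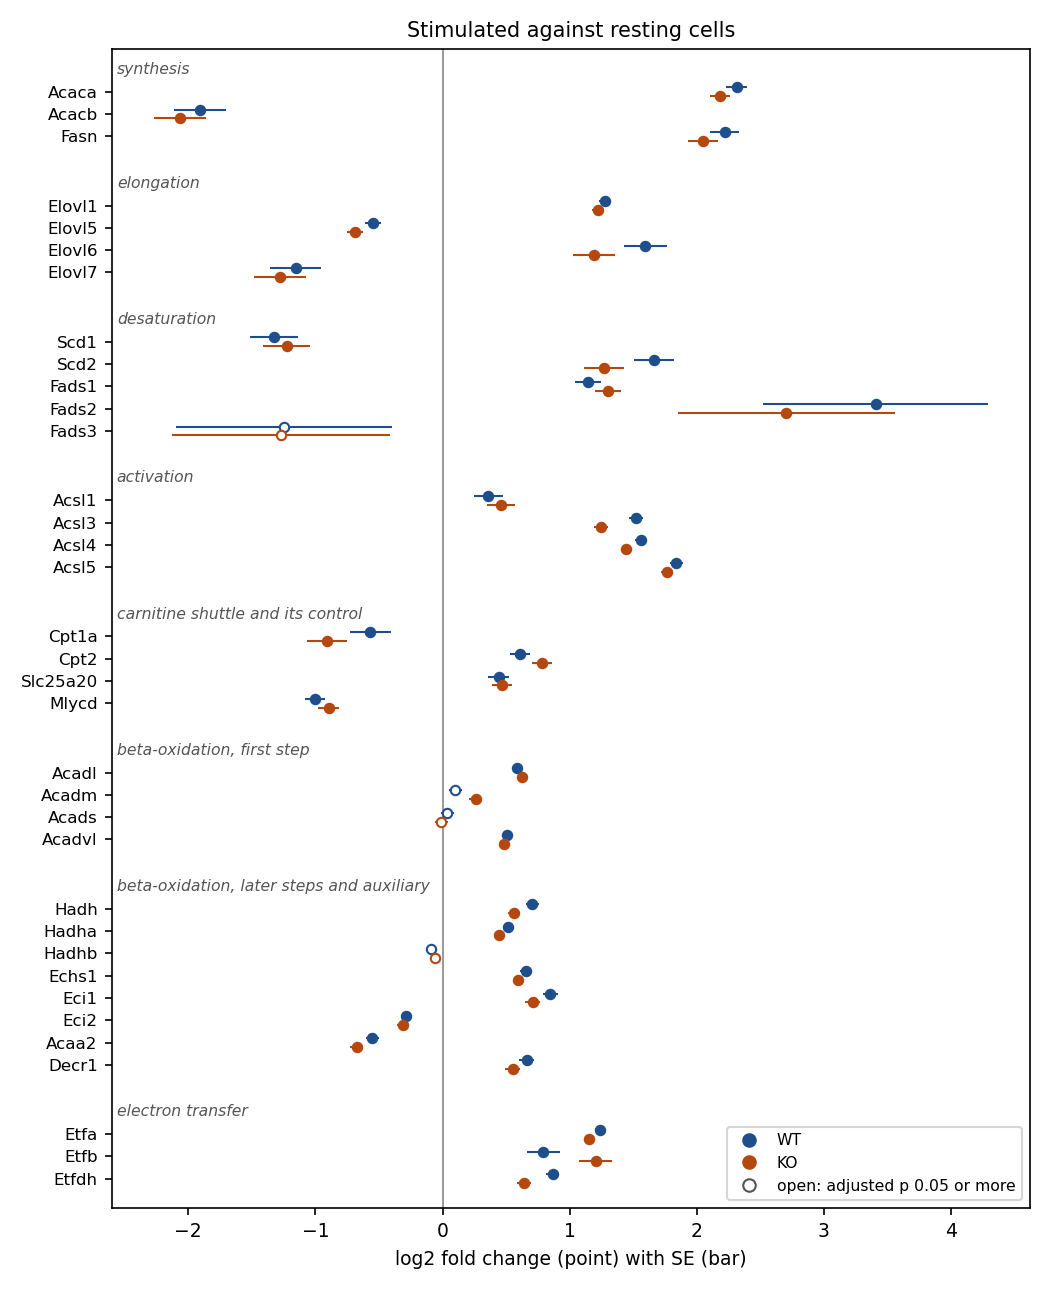
Log2 change from resting to stimulated cells for all 35 genes, ordered by role, with standard errors, in WT and KO cells. The synthesis and desaturation genes spread from -2.07 (Acacb, KO) to 3.41 (Fads2, WT), while the oxidation and electron transfer genes lay between -0.68 (Acaa2, KO) and 1.24 (Etfa, WT).

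Acaca and Fasn, the enzymes that commit carbon to synthesis, rose in both genotypes. Acaca (chr11:84129672-84401651, mm10), the cytosolic acetyl-CoA carboxylase, was at 35.8, 37.8 and 44.9 CPM in WT resting and 43.2, 42.5 and 39.3 in KO resting libraries. It reached 204, 184 and 201 CPM in WT and 184, 182 and 200.4 in KO stimulated libraries. Every stimulated library was thus far above every resting one, a 4.97-fold rise in WT (log2 2.31 ± 0.08, edgeR adjusted p = 1.8e-11) and 4.54-fold in KO cells (log2 2.18 ± 0.08, edgeR adjusted p = 3.4e-11). Fasn (chr11:120805846-120824547), which assembles palmitate, rose from 133, 156 and 190.2 to 772, 668 and 790.4 CPM in WT libraries. In KO libraries it rose from 168, 176 and 172 to 714, 665 and 757 CPM. The change was 2.22 ± 0.12 in WT and 2.05 ± 0.11 in KO cells (edgeR adjusted p = 2.3e-09 and 5e-09). Acacb, the carboxylase at the outer mitochondrial membrane whose malonyl-CoA restrains Cpt1a, went the other way. It fell from 3.19, 3.25 and 2.49 to 0.874, 0.778 and 0.729 CPM in WT and from 3.92, 3.63 and 2.85 to 0.909, 0.940 and 0.630 in KO libraries, a log2 change of -1.91 ± 0.20 and -2.07 ± 0.20 (edgeR adjusted p = 1.6e-06 and 7.4e-07).

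The promoter of Fasn is shown because this gene carried the largest CPM rise among the synthesis enzymes. It comes from RefSeq (GRCm38.p6), chr11:120824498-120824797 on the minus strand, with 250 bases before and 50 bases after the annotated start of transcription. Capitals mark the letters CCAAT or its reverse complement ATTGG, which begin 90, 62 and 59 bases before the start, the last pair overlapping.
Fasn: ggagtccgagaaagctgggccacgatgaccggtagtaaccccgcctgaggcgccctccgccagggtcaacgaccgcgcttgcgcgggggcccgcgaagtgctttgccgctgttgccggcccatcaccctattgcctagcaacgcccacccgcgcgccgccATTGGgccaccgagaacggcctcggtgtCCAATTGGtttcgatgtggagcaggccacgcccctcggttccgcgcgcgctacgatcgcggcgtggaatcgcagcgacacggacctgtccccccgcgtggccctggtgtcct

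Because Acaca and Acacb are closely related enzymes, their split was computed from length-scaled levels, a comparison chosen after the values were seen, as were the other pairs below. Acacb made up 7.66% ± 1.73 (SD, n = 3) of the pair in WT resting and 8.23% ± 0.859 in KO resting cells. After stimulation it made up 0.436% ± 0.0396 in WT and 0.475% ± 0.119 in KO cells. A similar split was seen in the stearoyl-CoA desaturases Scd1 and Scd2, which add the double bond that makes oleate and palmitoleate and whose genes lie 87590 bases apart on chromosome 19. Scd2 (chr19:44293674-44306864) rose from 125, 127 and 163 to 478, 349 and 492 CPM in WT and from 111, 139 and 144 to 315, 290 and 345 in KO libraries. Its change was 1.67 ± 0.16 in WT and 1.27 ± 0.16 in KO cells (edgeR adjusted p = 2.3e-06 and 2.2e-05). Scd1 (chr19:44394455-44407879) fell from 74.7, 66.0 and 51.6 to 20.2, 27.4 and 29.0 CPM in WT and from 57.8, 83.9 and 79.4 to 28.9, 32.2 and 33.3 in KO libraries. Its change was -1.33 ± 0.19 in WT and -1.23 ± 0.19 in KO cells (edgeR adjusted p = 8.5e-05 and 0.00015). The Scd1 share of the pair went from 34.5% ± 7.23 to 6.31% ± 1.79 in WT and from 38.7% ± 1.78 to 10.1% ± 0.907 in KO cells. Across the resting libraries Scd1 had the order of the B cell sums in each genotype. These sums were 4359, 3318 and 2359 CPM in WT and 3098, 3512 and 3366 in KO libraries. In WT the myeloid, neutrophil, dendritic cell, erythroid and CD8 T cell sums had that order as well. The part of these transcripts in the Scd1 values was not tested. Acaca, Scd1 and Scd2 had fractional counts in every library, as RSEM gives where it divides reads between sequences, and the Scd1 and Scd2 split carries that uncertainty.

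**Figure D3:**
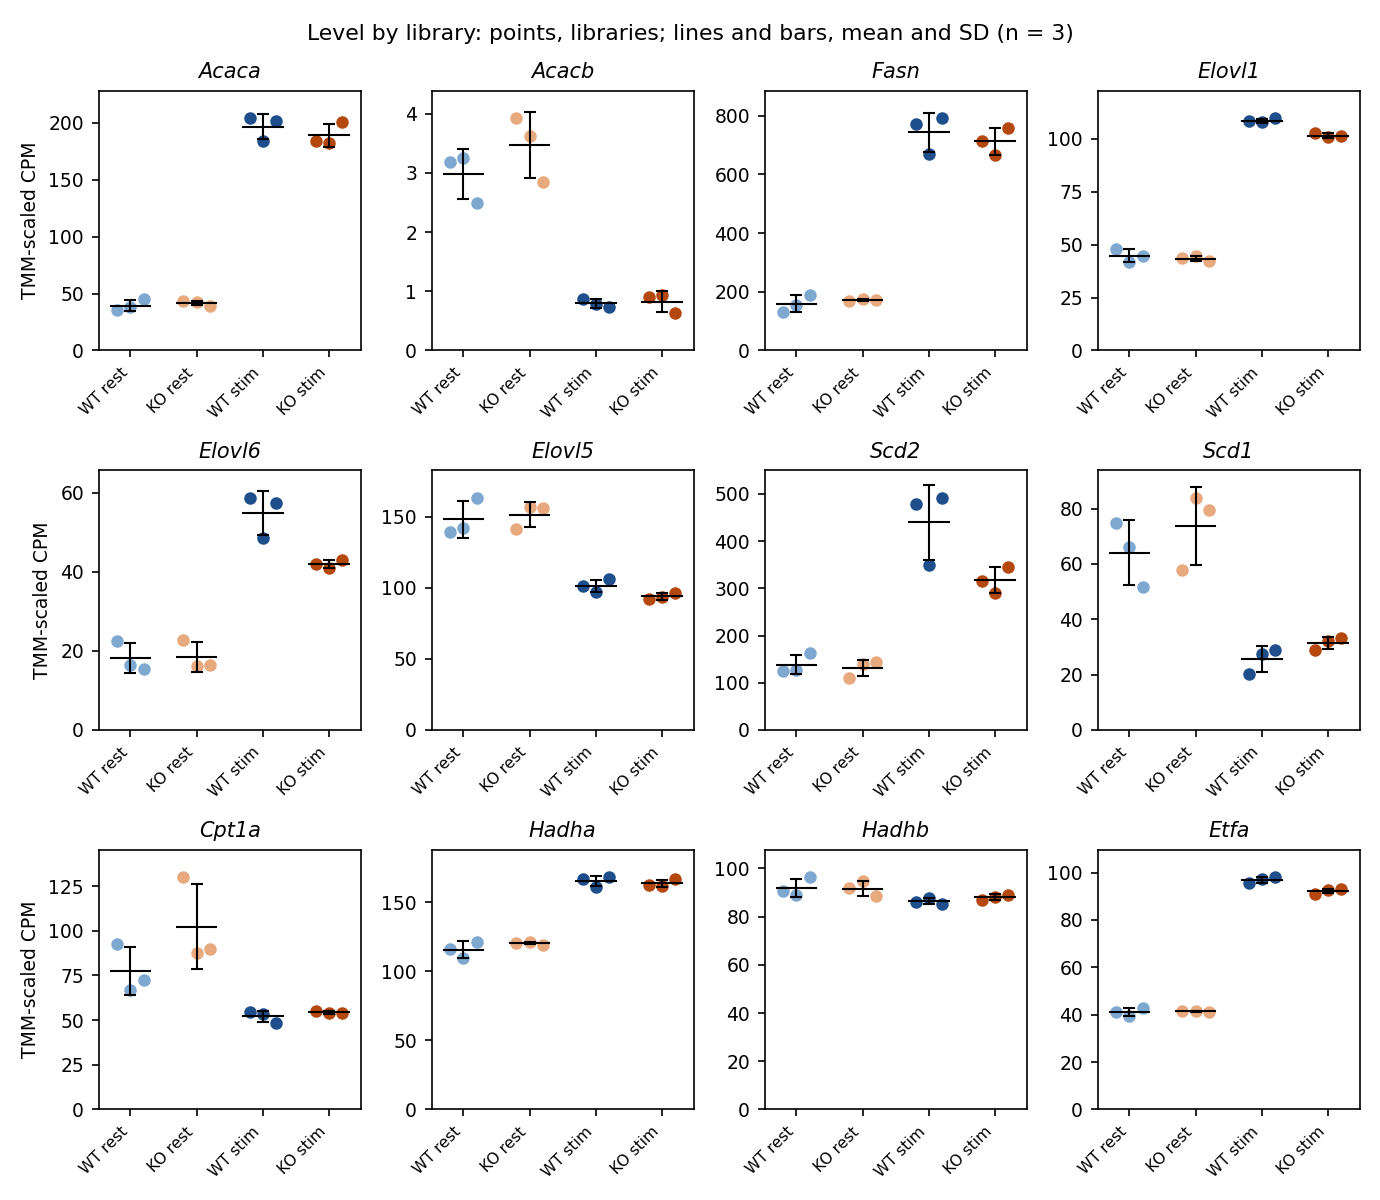
CPM per library for Acaca, Acacb, Fasn, Elovl1, Elovl6, Elovl5, Scd2, Scd1, Cpt1a, Hadha, Hadhb and Etfa in the 4 groups. Each library is 1 point, and lines and bars are group means and SD. Acaca and Scd2 were higher and Acacb and Scd1 lower in every stimulated library than in every resting library, and Hadha rose while Hadhb was at 85.3 to 96.3 CPM throughout.

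The elongases moved in both directions. Elovl6 (chr3:129532355-129638495), which lengthens palmitate to stearate, rose from 22.6, 16.4 and 15.5 to 58.8, 48.6 and 57.4 CPM in WT and from 22.8, 16.1 and 16.4 to 41.9, 41.1 and 43.0 in KO libraries. Its log2 change was 1.60 ± 0.17 in WT and 1.19 ± 0.17 in KO cells (edgeR adjusted p = 5.7e-06 and 6.1e-05). Elovl1, an elongase of saturated very long chains, rose (41.9 to 47.9 CPM at rest, 101 to 109.6 stimulated), and its exons overlap those of Cdc20 on the other strand. Elovl5, which acts on polyunsaturated fatty acids, fell (139 to 163 CPM at rest, 92.1 to 106 stimulated), a change of -0.55 in WT and -0.69 in KO cells. Elovl7 fell too (3.38 to 5.17 CPM at rest, 1.37 to 2.21 stimulated). For each of the 4 elongases the resting and stimulated libraries did not overlap, and all were called in both genotypes.

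The Elovl5 promoter (RefSeq, GRCm38.p6, chr9:77917115-77917414, plus strand) is shown as that of the elongase that fell with the highest CPM, and because this was the 1 gene, of 30 members with a window, that held the E-box letters CACGTG. Capitals mark that motif, which begins 161 bases before the start, and CCAAT or ATTGG, which begin 71 and 17 bases before it.
Elovl5: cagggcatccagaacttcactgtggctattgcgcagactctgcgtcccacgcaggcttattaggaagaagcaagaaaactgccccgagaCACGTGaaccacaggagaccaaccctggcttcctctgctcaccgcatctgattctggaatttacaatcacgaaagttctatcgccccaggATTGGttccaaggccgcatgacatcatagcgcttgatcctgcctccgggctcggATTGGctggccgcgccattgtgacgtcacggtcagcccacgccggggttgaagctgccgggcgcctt

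The 3 desaturase genes of the Fads family are neighbours on chromosome 19. Fads1 rose (18.1 to 28.4 CPM at rest, 47.7 to 55.2 stimulated), a log2 change of 1.14 ± 0.10 in WT and 1.302 ± 0.10 in KO cells. Fads2 rose from 3.97, 2.28 and 0.583 to 24.5, 20.4 and 27.9 CPM in WT and from 7.23, 0.916 and 0.780 to 18.5, 18.6 and 21.04 in KO libraries. Its resting levels spread widely while its stimulated levels were close together, and the changes of 3.41 ± 0.88 and 2.703 ± 0.85 had large errors (edgeR adjusted p = 0.0055 and 0.015). With the 6 KO libraries fitted alone, Fads2 missed the threshold in KO cells (edgeR adjusted p = 0.064). Fads3 showed the same resting spread, at 3.40, 1.56 and 0.424 CPM in WT and 3.82, 0.439 and 0.830 in KO libraries, and 0.540 to 1.03 CPM after stimulation. Its change of -1.25 ± 0.85 in WT and -1.27 ± 0.86 in KO cells was not called (edgeR adjusted p = 0.19 in both), and without KO resting library 1 it was 0.15 in KO cells. The resting libraries with the highest Fads2 and Fads3 were those numbered 1 in each genotype, which also had the highest sums of 9 erythroid genes, 1735, 522 and 62.0 CPM in WT and 1717, 225 and 146 in KO resting libraries, against 14.3 to 70.1 after stimulation. The neutrophil sums were highest there too, at 199, 131 and 47.1 CPM in WT and 141, 53.6 and 64.4 in KO resting libraries. So were the dendritic cell sums, at 162, 105 and 87.9 CPM in WT and 117.7, 117.3 and 103.6 in KO resting libraries. The gamma-delta T cell sums were at 36.1, 29.9 and 33.4 CPM in WT and 31.6, 28.4 and 25.8 in KO resting libraries. The part of these transcripts in the Fads values was not tested. Without both libraries numbered 1, an alternative added after seeing the data, Fads2 rose by 4.10 in WT and 4.53 in KO cells.

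All 4 long-chain acyl-CoA synthetases among the members, which activate fatty acids for either route, rose in both genotypes. Acsl5 (chr19:55251938-55297720) was the most abundant of them in CPM and rose (104 to 119 CPM at rest, 365 to 403 stimulated), by 1.84 ± 0.05 in WT and 1.76 ± 0.05 in KO cells. Acsl4, which prefers arachidonate and lies on the X chromosome, rose (64.4 to 67.7 CPM at rest, 181 to 203 stimulated), by 1.56 ± 0.04 and 1.44 ± 0.04. Acsl3 (chr1:78657825-78707743), known on the endoplasmic reticulum and lipid droplets, rose (12.5 to 14.0 CPM at rest, 30.5 to 38.6 stimulated), by 1.52 ± 0.05 and 1.25 ± 0.05. Acsl1 rose least (13.8 to 18.8 CPM at rest, 19.2 to 22.4 stimulated), by 0.36 ± 0.11 in WT (edgeR adjusted p = 0.01) and 0.46 ± 0.11 in KO cells (edgeR adjusted p = 0.0023). For Acsl1 the highest resting library, at 18.8 CPM, lay just under the lowest stimulated one, at 19.2 CPM.

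In the carnitine shuttle, the entry enzyme and the decarboxylase that relieves it fell, and the carrier and the inner-membrane transferase rose. Cpt1a (chr19:3322334-3385733), the malonyl-CoA-sensitive carnitine palmitoyltransferase of the outer mitochondrial membrane, was at 92.4, 66.9 and 72.4 CPM in WT resting and 54.5, 53.3 and 48.5 in WT stimulated libraries. In KO libraries it went from 129.8, 87.6 and 89.5 to 55.2, 53.8 and 54.2 CPM. All 6 stimulated libraries lay below all 6 resting ones, and the change was -0.57 ± 0.16 in WT and -0.91 ± 0.16 in KO cells (edgeR adjusted p = 0.0068 and 0.00034). Mlycd, malonyl-CoA decarboxylase, which removes the inhibitor of Cpt1a, fell (16.2 to 18.7 CPM at rest, 8.01 to 9.67 stimulated), with changes of -1.004 ± 0.08 and -0.90 ± 0.08. Cpt2, the inner-membrane transferase, rose (8.99 to 11.4 CPM at rest, 15.3 to 17.2 stimulated), by 0.61 ± 0.08 in WT and 0.78 ± 0.08 in KO cells. Slc25a20, the carnitine-acylcarnitine carrier, rose (20.03 to 26.4 CPM at rest, 28.9 to 33.7 stimulated), by 0.44 ± 0.08 and 0.47 ± 0.08.

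The Cpt1a promoter (RefSeq, GRCm38.p6, chr19:3323051-3323350, plus strand) is shown for the shuttle gene that fell, with CCAAT or ATTGG in capitals, beginning 19 bases before the start.
Cpt1a: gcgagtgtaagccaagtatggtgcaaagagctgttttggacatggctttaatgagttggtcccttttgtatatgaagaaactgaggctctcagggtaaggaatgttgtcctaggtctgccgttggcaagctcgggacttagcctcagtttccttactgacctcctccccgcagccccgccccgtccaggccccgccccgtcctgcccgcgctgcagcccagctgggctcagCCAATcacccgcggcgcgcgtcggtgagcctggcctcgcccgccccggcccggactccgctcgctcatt

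The acyl-CoA dehydrogenases, which take the first step of each round, differed by chain length. Acadvl, for very long chains, rose (64.9 to 70.9 CPM at rest, 92.7 to 96.1 stimulated), by 0.51 ± 0.04 in WT and 0.48 ± 0.04 in KO cells. Acadl, for long chains, rose (42.3 to 45.9 CPM at rest, 66.5 to 71.2 stimulated), by 0.59 ± 0.04 and 0.63 ± 0.04. Acadm, for medium chains, was at 42.5 to 44.0 CPM in WT resting and 43.5 to 49.5 in WT stimulated libraries, which overlapped, and its change of 0.10 ± 0.05 was not called (edgeR adjusted p = 0.08). It was called higher in WT cells without WT stimulated library 3 and without KO stimulated library 3 (lowest edgeR adjusted p = 0.02). In KO cells Acadm rose by 0.26 ± 0.05 (edgeR adjusted p = 0.0004), a direction that scaling by total counts turned (to -0.07), and the test of the difference between the responses did not pass (0.16 ± 0.07, edgeR adjusted p = 0.31). Acads, for short chains, was at 22.3 to 26.8 CPM in all 12 libraries, with changes of 0.04 ± 0.05 and -0.01 ± 0.05 that were not called (edgeR adjusted p = 0.51 and 0.86).

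Of the later steps, the trifunctional protein showed unequal changes in its subunits. Hadha (chr5:30118304-30155162), the alpha subunit with the hydratase and dehydrogenase activities, was at 116, 109.7 and 121 CPM in WT resting and 167, 161 and 168 in WT stimulated libraries. It was at 120.4, 121 and 119 in KO resting and 162, 162 and 166 in KO stimulated libraries, a rise of 0.51 ± 0.04 in WT and 0.44 ± 0.04 in KO cells (edgeR adjusted p = 9.7e-08 and 4.4e-07). Hadhb (chr5:30155248-30184593), the beta subunit with the thiolase activity, was at 90.4, 88.9 and 96.3 CPM in WT resting libraries against 86.3, 87.7 and 85.3 in WT stimulated ones. In KO libraries it was at 91.8, 94.6 and 88.4 CPM at rest against 86.7, 88.2 and 89.2 after stimulation. Its changes of -0.09 ± 0.04 and -0.06 ± 0.04 were not called (edgeR adjusted p = 0.059 and 0.2). Hadhb was called lower in KO cells with the filter at 1 CPM in 3 libraries. In WT cells it was called lower with DESeq2's Wald test, without the low-count filter, with the filter at 1 CPM, and without WT resting library 2, at -0.11 (edgeR adjusted p = 0.042). Per kb of transcript, Hadha made up 39.1% ± 0.461 (SD, n = 3) of the pair in WT resting and 49.3% ± 0.942 in WT stimulated cells. In KO cells it made up 40.1% ± 0.660 at rest and 48.6% ± 0.297 after stimulation, so no resting value overlapped a stimulated one. Exons of Hadha overlap Garem2 on the other strand, and Hadhb had fractional counts in every library.

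Both genes start from 1 short interval of chromosome 5, in opposite directions and with 85 bases between the gene bounds in GENCODE and 272 bases between the starts in RefSeq. Their promoter windows (RefSeq, GRCm38.p6) overlap and are shown because the pair shares this interval while the levels changed unequally. Hadha is read on the minus strand (chr5:30154931-30155230) and Hadhb on the plus strand (chr5:30155003-30155302). Neither window held any of the motifs searched, so no letters are in capitals.
Hadha: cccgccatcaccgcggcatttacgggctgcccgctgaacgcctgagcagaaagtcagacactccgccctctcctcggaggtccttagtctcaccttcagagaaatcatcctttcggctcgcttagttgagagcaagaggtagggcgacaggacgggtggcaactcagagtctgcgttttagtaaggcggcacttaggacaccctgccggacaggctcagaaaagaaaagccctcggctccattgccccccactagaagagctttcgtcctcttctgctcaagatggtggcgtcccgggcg
Hadhb: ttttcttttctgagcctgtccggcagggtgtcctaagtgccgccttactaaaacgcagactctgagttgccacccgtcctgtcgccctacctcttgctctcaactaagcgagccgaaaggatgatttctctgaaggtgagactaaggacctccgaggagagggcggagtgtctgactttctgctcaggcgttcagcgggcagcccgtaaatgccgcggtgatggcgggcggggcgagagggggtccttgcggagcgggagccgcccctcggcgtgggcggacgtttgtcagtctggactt

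The remaining enzymes of the later steps moved in both directions, with both genotypes alike in direction. Hadh, the short-chain hydroxyacyl-CoA dehydrogenase (chr3:131233419-131272101), rose (31.3 to 35.03 CPM at rest, 46.8 to 54.7 stimulated), by 0.71 ± 0.05 in WT and 0.56 ± 0.05 in KO cells. Echs1, the short-chain enoyl-CoA hydratase, rose by 0.66 ± 0.04 and 0.60 ± 0.04. Eci1, a mitochondrial enoyl-CoA isomerase for unsaturated chains, rose by 0.85 ± 0.06 and 0.71 ± 0.06, whereas the related Eci2, found in mitochondria and peroxisomes, fell, with changes of -0.28 ± 0.05 and -0.31 ± 0.05. Decr1, the dienoyl-CoA reductase for polyunsaturated chains, rose by 0.66 ± 0.06 and 0.55 ± 0.06. Acaa2, the thiolase for medium chains, fell (37.8 to 43.7 CPM at rest, 24.2 to 27.9 stimulated), with changes of -0.55 ± 0.05 and -0.68 ± 0.05. Electrons from the acyl-CoA dehydrogenases pass to the electron transfer flavoprotein, and its subunits rose. Etfa rose (39.6 to 42.7 CPM at rest, 91.1 to 98.0 stimulated), by 1.24 ± 0.04 in WT and 1.154 ± 0.04 in KO cells. Etfb rose from 39.0, 31.5 and 24.4 to 51.8, 58.5 and 54.4 CPM in WT and from 23.5, 23.8 and 22.5 to 52.0, 53.1 and 55.8 in KO libraries, by 0.79 ± 0.13 and 1.204 ± 0.13. Etfdh, which hands the electrons to ubiquinone, rose by 0.87 ± 0.05 and 0.64 ± 0.05. Exons of Acsl1, Acadvl, Echs1, Eci2 and Etfdh overlap a gene on the other strand and those of Scd2 and Etfb a small RNA gene or predicted gene on the same strand.

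In stimulated cells, 4 of the 35 genes were lower in KO than in WT and none was higher, where 4.76% of all tested genes were called, 3.37% higher and 1.4% lower. The 4 were Elovl6, Acsl3, Acsl5 and Hadh, from elongation, activation and a later step of oxidation, and each change was small. The median log2 difference over the 35 genes was -0.06, against 0.00 over all tested genes, and 25 of the 35 lay below 0. The WT and KO libraries did not overlap for 13 genes lower in KO and 2 higher, against 14.6% and 13.4% of all tested genes.

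Elovl6 was at 58.8, 48.6 and 57.4 CPM in WT and 41.9, 41.1 and 43.0 in KO stimulated libraries, and all KO values lay below all WT values. The difference was -0.38 ± 0.07 (edgeR adjusted p = 0.022). Acsl3 was at 35.8, 35.4 and 38.6 CPM in WT and 31.6, 30.5 and 32.1 in KO libraries, a difference of -0.21 ± 0.05 (edgeR adjusted p = 0.03). Acsl5 was at 401, 403 and 403 CPM in WT and 365, 375 and 373 in KO libraries, a difference of -0.11 ± 0.03 (edgeR adjusted p = 0.043). Hadh was at 53.7, 54.3 and 54.7 CPM in WT and 50.1, 46.8 and 48.5 in KO libraries, a difference of -0.15 ± 0.04 (edgeR adjusted p = 0.042). For each of these genes too, all 3 KO libraries lay below all 3 WT libraries. None of the 4 calls held without WT stimulated library 3 or without any 1 of the KO stimulated libraries, and only Elovl6 and Acsl3 held without WT stimulated library 1. Over these alternatives the edgeR adjusted p ran from 3.3e-05 to 0.1 for Elovl6, 0.0072 to 0.14 for Acsl3, 0.018 to 0.19 for Acsl5 and 0.026 to 0.19 for Hadh, and a fit of all 12 libraries called none of the 4. The call of Acsl5 was also lost with the filter at 1 CPM in 3 libraries. Exons of Acsl5 and Elovl6 overlap Zdhhc6 and Gm35986 on the other strand and those of Acsl3 overlap Utp14b on the same strand, and the sources used here do not say whether reads were counted by strand.

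**Figure D4:**
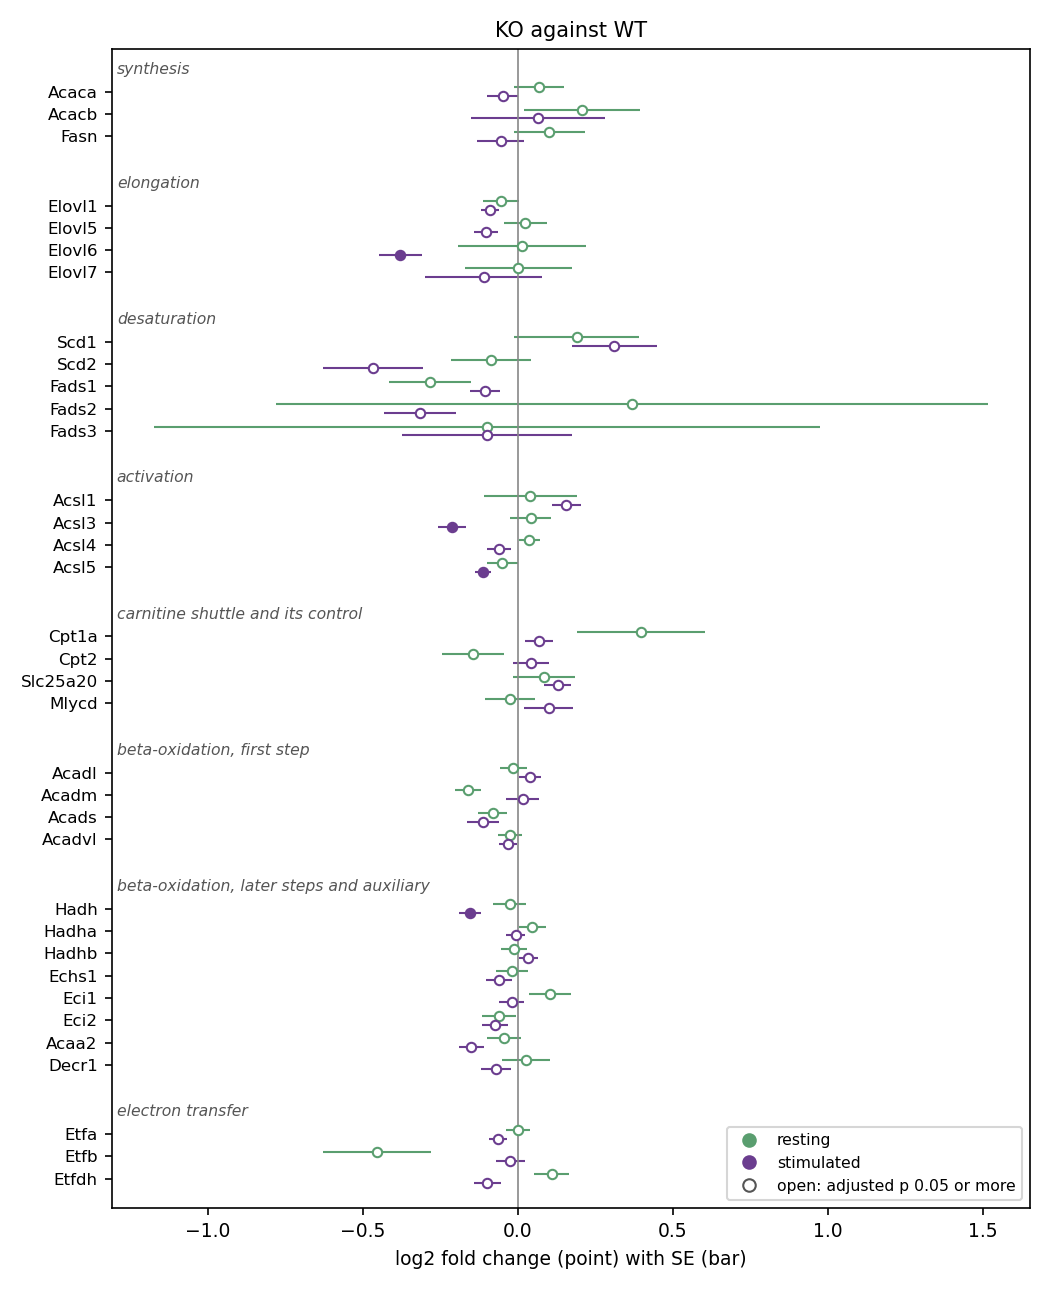
Log2 difference of KO against WT for the 35 genes, with standard errors, in resting and in stimulated cells. None passed the threshold at rest, and Elovl6, Acsl3, Acsl5 and Hadh passed it after stimulation, between -0.38 and -0.11.

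Among the desaturases, differences of similar size came with larger errors and did not pass. Scd2 was at 478, 349 and 492 CPM in WT and 315, 290 and 345 in KO stimulated libraries, with no overlap, and its difference of -0.47 ± 0.16 was the largest among the 35 (edgeR adjusted p = 0.21). Scd1 was at 20.2, 27.4 and 29.0 CPM in WT and 28.9, 32.2 and 33.3 in KO libraries, which overlapped, with a difference of 0.31 ± 0.14 (edgeR adjusted p = 0.27). Fads2 was at 24.5, 20.4 and 27.9 CPM in WT and 18.5, 18.6 and 21.04 in KO libraries, a difference of -0.32 ± 0.12 (edgeR adjusted p = 0.18), and DESeq2's Wald test called it lower (DESeq2 adjusted p = 0.03). Fasn and Acaca had differences of -0.06 ± 0.08 and -0.05 ± 0.05, with overlapping libraries. WT stimulated library 2 was the lowest of the 3 WT libraries for Acaca, Fasn, Elovl6, Scd2, Fads1 and Fads2. It also had the highest sums of the 3 for B cell markers (511, 808 and 674 CPM), myeloid markers (58.2, 94.3 and 70.8 CPM) and erythroid genes (18.5, 70.1 and 19.9 CPM). The neutrophil, dendritic cell, platelet, NK cell and CD8 T cell sums were highest there too, and the gamma-delta T cell sum was not. The KO stimulated libraries were at 1085, 1098 and 1146 CPM for B cell and 120.5, 129.5 and 122.8 CPM for myeloid markers, above all WT stimulated libraries for both lists, and their part in the genotype values was not tested. Without WT stimulated library 2, 9 members were called lower and 1 higher, where 3.19% and 5.95% of all tested genes were called. Scd2 (-0.61), Fads2, Fads1, Elovl5 and Etfdh were added to the lower genes and Acsl1 (0.19) was the higher one.

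Apart from Hadh, no oxidation or shuttle gene was called between the stimulated genotypes. Acaa2 was at 27.8, 27.7 and 27.9 CPM in WT and 24.2, 24.9 and 25.8 in KO libraries, with no overlap and a difference of -0.15 ± 0.04 (edgeR adjusted p = 0.07). Cpt1a was at 54.5, 53.3 and 48.5 CPM in WT and 55.2, 53.8 and 54.2 in KO libraries (0.07 ± 0.05, edgeR adjusted p = 0.44). Slc25a20 was at 28.9, 30.04 and 29.7 CPM in WT and 30.8, 33.7 and 31.9 in KO libraries. Acsl1 was at 19.6, 20.8 and 19.2 CPM in WT and 22.2, 22.4 and 21.6 in KO libraries. For these 2 genes all KO libraries lay above all WT libraries, with log2 differences of 0.13 ± 0.04 and 0.16 ± 0.05 (edgeR adjusted p = 0.14 and 0.09). The trifunctional protein subunits Hadha and Hadhb had differences of -0.01 ± 0.03 and 0.03 ± 0.03, and the flavoprotein subunits Etfa and Etfb of -0.07 ± 0.03 and -0.02 ± 0.05.

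At rest, none of the 35 genes was called between KO and WT by edgeR or by DESeq2, where 0.0361% of all tested genes were called by edgeR. At an unadjusted p under 0.05 there were 2, Acadm and Etfb, against 13.7% of all tested genes. The median log2 difference was 0.00 over the 35 genes and 0.01 over all. WT and KO libraries did not overlap for Acadm, Acads and Etfb, lower in KO, and for Acsl4, higher in KO, against 10.0% and 9.86% of all tested genes. For Acaca and Fasn the differences were 0.07 ± 0.08 and 0.10 ± 0.12, and for Scd2 and Scd1 -0.09 ± 0.13 and 0.19 ± 0.20, each within the spread between libraries.

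The largest resting differences stood beside uneven marker sums. Etfb was at 39.0, 31.5 and 24.4 CPM in WT and 23.5, 23.8 and 22.5 in KO resting libraries, a difference of -0.45 ± 0.17 (edgeR adjusted p = 0.35). The myeloid sums were 5719, 3025 and 1851 CPM in WT and 1696, 1686 and 1739 in KO resting libraries, in the same order as Etfb across the 3 WT libraries. The B cell, neutrophil, dendritic cell, erythroid and CD8 T cell sums had that order across the WT resting libraries too. Cpt1a was at 92.4, 66.9 and 72.4 CPM in WT and 129.8, 87.6 and 89.5 in KO resting libraries, a difference of 0.40 ± 0.21 (edgeR adjusted p = 0.46), and library 1 was the highest of the 3 in both genotypes. Fads2 and Fads3 had differences of 0.37 ± 1.148 and -0.10 ± 1.07, whose errors exceeded 1 on the log2 scale. Library 1 was again highest in both genotypes, beside the erythroid, neutrophil, dendritic cell and gamma-delta T cell sums given above. Without KO resting library 1 the difference was -1.45 for Fads2. The part of these transcripts in the values was not tested. Without both libraries numbered 1, no member was called, and the difference was 0.34 for Cpt1a and -0.28 for Etfb. Heat shock and immediate early genes (11) summed to 3471, 3817 and 4205 CPM in WT and 2563, 2711 and 2665 in KO resting libraries, which did not overlap.

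**Figure D5:**
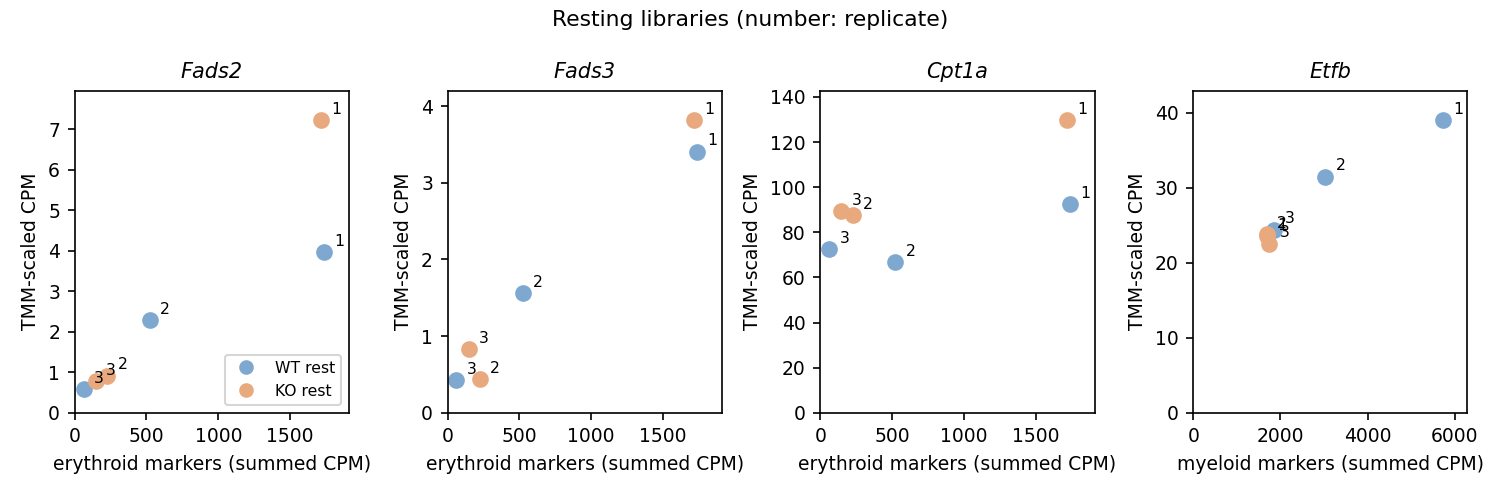
Levels of Fads2, Fads3, Cpt1a and Etfb in the 6 resting libraries (CPM), set beside the erythroid and myeloid marker sums of the same libraries. Library 1 of each genotype was highest for Fads2, Fads3, Cpt1a and the erythroid sum, and the 3 WT libraries had the same order for Etfb and the myeloid sum. The neutrophil, dendritic cell and gamma-delta T cell sums, not drawn, were also highest in library 1 of each genotype. In WT the B cell, neutrophil, dendritic cell, erythroid and CD8 T cell sums shared the order of Etfb.

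The responses of the genotypes to stimulation were compared directly in 1 fit of all 12 libraries. None of the 35 differences was called by edgeR, where 0.693% of all tested genes were called, and 4 had an unadjusted p under 0.05, against 15.9% of all genes. The median was -0.08 over the members and -0.01 over all tested genes. The 4 were Acsl3 (-0.27 ± 0.08, edgeR adjusted p = 0.12), Etfdh (-0.22 ± 0.08, 0.18), Acadm (0.16 ± 0.07, 0.31) and Etfb (0.41 ± 0.18, 0.31). DESeq2's Wald test called 1 member, Acsl3, as rising less in KO cells. Without WT resting library 3, edgeR called Etfb as rising more (adjusted p = 0.012) and Etfdh as rising less in KO cells (adjusted p = 0.047). Elovl6 and Scd2 had differences of -0.41 ± 0.23 and -0.39 ± 0.22 that were not called (edgeR adjusted p = 0.42 and 0.41), and those of Acaca, Fasn and Cpt1a were -0.13 ± 0.11, -0.17 ± 0.16 and -0.34 ± 0.22.

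The surroundings of the pathway were followed in 9 further lists. After stimulation, the 9 measured genes of mitochondrial fatty acid synthesis, the separate route that makes the lipoate precursor, all rose in both genotypes, with a median of 1.24 in WT and 1.09 in KO cells. Ndufab1, its acyl carrier protein and also a subunit of respiratory complex I, rose (35.6 to 39.0 CPM at rest, 128 to 142 stimulated). Lipt2, which transfers the finished octanoyl chain toward lipoate, rose by 1.93 ± 0.15 in WT and 1.87 ± 0.15 in KO cells. Of the 7 genes that supply acetyl-CoA and NADPH, 4 rose and 2 fell in WT and 5 rose and 2 fell in KO cells (medians 0.81 and 0.98). Acly, ATP-citrate lyase, which makes cytosolic acetyl-CoA, rose (207 to 262 CPM at rest, 447 to 510.4 stimulated), and Acss2, which makes it from acetate, fell (49.1 to 67.5 CPM at rest, 10.1 to 12.9 stimulated). Idh1, the NADPH-making isocitrate dehydrogenase of the cytosol, also fell (17.1 to 42.9 CPM at rest, 3.14 to 3.65 stimulated), with changes of -3.08 ± 0.23 in WT and -2.42 ± 0.23 in KO cells. Among 12 tested partners of the elongation cycle, 8 rose and 3 fell in WT and 8 rose and 4 fell in KO cells (medians 0.87 and 0.86). Hacd4, of the dehydratase family, fell (5.95 to 19.2 CPM at rest, 0.0152 to 0.101 stimulated). Elovl3, an elongase, had 0 counts in all 6 resting libraries, which allows up to 0.0371 to 0.0415 CPM, and was at 0.116 to 0.397 CPM after stimulation.

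Of the 13 genes of SREBP control, the sterol-regulated switch of lipid synthesis genes, 6 rose and 6 fell in WT and 5 rose and 5 fell in KO cells (medians -0.07 and -0.03). Insig1, the sterol-sensitive brake that is itself an SREBP target, rose (31.6 to 35.9 CPM at rest, 107 to 130.1 stimulated). Srebf2, one of the SREBP genes, rose by 0.69 ± 0.06 in WT and 0.53 ± 0.06 in KO cells, and Srebf1, whose direction turns under total counts, had log2 changes of 0.22 ± 0.06 and 0.09 ± 0.06 (edgeR adjusted p = 0.0037 and 0.16). Among 11 tested regulators of oxidation, 3 rose and 5 fell in WT and 2 rose and 5 fell in KO cells (medians -0.06 and -0.07). Mlxipl, a glucose-responsive regulator of lipogenic genes on the first list, and Ppargc1a, a coactivator of mitochondrial genes on the second, were called lower at low levels. Mlxipl was at 0.198 to 0.530 CPM at rest and 0 to 0.0635 after stimulation, and Ppargc1a at 0.301 to 0.484 and 0 to 0.0635 CPM. Pparg, a nuclear receptor on the second list, fell by 6.03 ± 0.39 in WT and 4.18 ± 0.37 in KO cells, and Nr1h3, a nuclear receptor on the first, by 6.08 ± 0.48 in WT and 3.68 ± 0.43 in KO cells. Pparg was at 15.1, 8.15 and 5.22 CPM and Nr1h3 at 49.8, 26.9 and 13.9 CPM in the WT resting libraries, in the order of the myeloid sums. The B cell, neutrophil, dendritic cell, erythroid and CD8 T cell sums had that order in WT as well. In the KO resting libraries, whose myeloid sums were close together, Pparg was at 3.32, 3.58 and 3.38 CPM and Nr1h3 at 10.8, 10.1 and 10.1 CPM. Idh1, Hacd4, Abcd2, Fabp4 and Lpl had the same order across the 3 WT resting libraries. The part of myeloid, B cell, neutrophil, dendritic cell, erythroid or CD8 T cell transcripts in the falls of these 7 genes was not tested. Of 14 peroxisomal oxidation genes, 4 rose and 10 fell in each genotype, with a median of -1.03 in WT and -1.08 in KO cells. Abcd2, a peroxisomal transporter of very long chain acyl-CoA, fell (3.78 to 11.3 CPM at rest, 0 to 0.0793 stimulated), and Pecr, the peroxisomal enoyl-CoA reductase, rose by 2.63 ± 0.13 and 2.65 ± 0.13. In other mitochondrial oxidation 5 of 10 rose and 4 fell in each genotype (medians 0.37 and 0.18). Acad10, of the acyl-CoA dehydrogenase family, fell by 1.73 ± 0.11 and 1.78 ± 0.11. Of the other isoforms of Cpt1a, Cpt1c rose by 1.54 ± 0.36 in WT cells and Cpt1b by 1.24 ± 0.23 in KO cells. Both were higher in the other genotype too. Cpt1b was at 1.27 to 2.69 CPM in WT resting and 4.01 to 4.81 in WT stimulated libraries. Cpt1c was low, at 0.146 to 0.290 CPM in WT resting and 0.476 to 0.708 in WT stimulated libraries. In KO libraries Cpt1c was at 0.238 to 0.496 CPM at rest and 0.521 to 0.719 after stimulation. Of 12 uptake and binding genes 5 rose and 5 fell in WT and 4 rose and 5 fell in KO cells (medians -0.08 and 0.16). Fabp4, a fatty acid binding protein, fell (1.25 to 3.92 CPM at rest, 0.0304 to 0.174 stimulated), and Lpl, lipoprotein lipase, fell by 4.88 ± 0.41 in WT cells. Fabp5, another fatty acid binding protein, rose (7.89 to 12.8 CPM at rest, 106 to 132 stimulated). Of 20 storage and lipolysis genes 8 rose and 10 fell in WT and 10 rose and 9 fell in KO cells (medians -0.18 and 0.18). G0s2, an inhibitor of the main triglyceride lipase, fell (3.19 to 4.02 CPM at rest, 0.0150 to 0.0904 stimulated), and Lipa, the lysosomal acid lipase, fell (121 to 179 CPM at rest, 23.8 to 26.6 stimulated).

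Between the genotypes at rest, and for the difference of responses, no gene of the 9 lists was called. The most abundant gene of each list (Acly, Tecr, Ndufab1, Srebf2, Rxrb, Acat1, Scp2, Acbd3 and Agpat3) had differences of -0.07 (Ndufab1) to 0.10 (Srebf2) at rest, and differences of responses of -0.16 (Srebf2) to 0.11 (Scp2). In stimulated cells 6 of the 101 tested genes of the lists were lower and 1 was higher in KO (5.94% and 0.990%), against 1.4% and 3.37% of all tested genes. The 4 lists without a call had differences of -0.06 for Ndufab1, -0.03 for Rxrb, -0.08 for Acat1 and 0.13 for Scp2 in their most abundant gene. Insig1 differed by -0.20 ± 0.04 (edgeR adjusted p = 0.014) and Fabp5 by -0.21 ± 0.04 (edgeR adjusted p = 0.014). Dbi, the acyl-CoA binding protein, differed by -0.17 ± 0.03, and Pgd, an NADPH-making dehydrogenase of the pentose phosphate pathway, by -0.15 ± 0.03. Cyb5a, the cytochrome that feeds electrons to the desaturases, and Tecr, the last enzyme of the elongation cycle, differed by -0.19 ± 0.03 and -0.13 ± 0.03. Plin2, which coats lipid droplets, was at 14.0, 17.3 and 13.4 CPM in WT and 20.05, 20.2 and 18.5 in KO stimulated libraries and was higher in KO by 0.40 ± 0.09 (edgeR adjusted p = 0.037). Each of these 7 calls was lost without KO stimulated library 1 or 3, and all but that of Fabp5 without KO stimulated library 2. Without WT stimulated library 3 the calls of Dbi, Pgd, Tecr and Plin2 were lost, and without WT stimulated library 1 that of Plin2, with edgeR adjusted p running up to 0.19 for Tecr over these alternatives. A fit of all 12 libraries kept only the call of Cyb5a, with edgeR adjusted p up to 0.52 (Fabp5 and Plin2).

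Promoter windows of 30 of the 35 genes were matched by symbol in RefSeq (GRCm38.p6), and Scd1, Scd2, Fads1, Acaa2 and Decr1 had no entry. Some RefSeq starts lie far from the GENCODE gene start, 65766 bases for Acaca, 32952 for Eci2 and 18983 for Acacb. For Cpt1a the distance is 967 bases, and for the second window of Acsl1 19929. Such windows may miss the promoter in use. The letters CCAAT, read on both strands, were in 15 of the 30, against 41.06% of 27025 genes. The 15 included Fasn, Elovl1, Elovl5, Acsl3, Acsl5, Cpt1a, Etfa and Etfb, genes that rose as well as genes that fell. The sterol regulatory element TCACNCCAC was in 1 of 30, a second window of Acsl1, against 1.436% of genes. The E-box CACGTG was in 1 of 30, Elovl5, against 8.093%, and the estrogen-related receptor element TCAAGGTCA in 0 of 30, against 0.4662%. Within the member windows the matches overlapped only in Fasn, where CCAAT and ATTGG share letters. A match is a description of these windows, not of binding.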

How the data were processed

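RNA-seq of polyA RNA from 12 libraries was analysed from the gene-level RSEM expected counts that the authors deposited in separate tables for resting and stimulated cells. Per the submitters' processing notes, the build was mm10 and the tools were RSEM 1.3.1, STAR 2.7.0f, cutadapt 1.18 and bcl2fastq 2.20. The kit is stranded per the labels' protocols, and the annotation and counting settings are not given in the sources used here. All 55450 gene IDs matched GENCODE M21, from which coordinates and transcript lengths (longest principal transcript) were taken. Expected counts were rounded and tested with edgeR 4.0.16 (TMM, filterByExpr with a minimum count of 10 and a minimum total of 15, robust quasi-likelihood F-test, Benjamini-Hochberg over all tested genes, threshold 0.05). Genotypes were compared in the 6 libraries of a condition, and stimulation and the difference of responses in 1 fit of 12. Levels are CPM on the TMM scale of that fit, marker sums are CPM of total counts, and balances and pair shares use CPM per kb. Alternatives were DESeq2 1.42.0 with its Wald test, DESeq2 size factors, other filters, a non-robust fit, a replicate block, other sets of libraries, and each library left out in turn.

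The fits were tested on simulated data before use. The 35 genes, the pathway lists and the marker lists were chosen with earlier results of these data known. All members are named, and from each pathway list, for each comparison, up to 2 called genes with the largest change, or the most abundant gene where none was called. Srebf1, and the stimulation values of Acly, Srebf2 and Insig1, were added after their values were seen. No pair of libraries of a group agreed within sampling noise (chi-square per degree of freedom 3.97 to 143), so none was taken as a repeat of the same library. The check cannot tell different animals from separate preparations of the same sample. Each library was counted as a replicate with that limit. Hsd17b8 was in neither table under that symbol and was not analysed here.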

Additional observations from a re-analysis of the deposited data

How the results depend on the processing

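All 35 members passed the low-count filter; whether depth limits those near 1 CPM in a condition, such as Acacb and Fads3, was not tested further. Of the member values recomputed, 693 of 700 for stimulation in WT and 695 of 700 in KO cells kept their call without a reversal. So did 660 of 665 for the difference of responses, 485 of 490 for KO against WT at rest and 420 of 453 after stimulation. A change of sign was counted as a reversal unless the value was called in neither fit and moved by less than 1 standard error. Such uncounted changes of sign were 43 of the 485 at rest, 13 of the 420 after stimulation and 20 of the 660. For stimulation there were 0 in WT and 1 in KO cells.

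For KO against WT at rest, no member was called under any alternative, and the number of all genes called moved from 6 to 518 with DESeq2's Wald test, 40 with no low-count filter, 161 with all 12 libraries fitted, 30 without both resting libraries numbered 1, and 2 to 18 with 1 library left out. For stimulated cells the 719 genes became 1133 with DESeq2's Wald test and 219 with all 12 libraries, and 128 to 1408 with 1 library left out. The 4 members lower in KO became 3 with at least 1 CPM in 3 libraries, where Acsl5 was lost, and 5 with DESeq2's Wald test. They became 0 with all 12 libraries and 0 to 9 with 1 left out, and the members higher ranged from 0 to 1. For the difference of responses the 121 genes became 1012 with DESeq2's Wald test, 204 with at least 1 CPM in 3 libraries, 209 without both libraries numbered 1 and 27 to 1646 with 1 left out. Members lower became 1 with DESeq2's Wald test, and members lower and higher each ranged from 0 to 1 with 1 left out. The cause of these moves was not tested, apart from the fewer libraries that leaving out implies.

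The median over members in place of the mean gave balances of -0.20 (WT resting), -0.19 (KO resting), 0.060 (WT stimulated, a reversed sign, though not in library 2) and -0.083 (KO stimulated). The other reversals were of values called in neither fit. Without both resting libraries numbered 1 they were Acaca at -0.020 and Echs1 at 0.036 (KO against WT at rest) and Fads3 at 0.16 (stimulation in KO), and with at least 1 CPM in 3 libraries Acads at -0.026 (stimulation in WT). With 1 library left out, KO against WT at rest ranged from -0.091 to 0.0030 for Elovl1, -1.45 to 1.05 for Fads2 and -0.022 to 0.18 for Slc25a20, and after stimulation from -0.28 to 0.18 for Fads3. The response in KO cells ranged from -1.72 to 0.15 for Fads3 and -0.033 to 0.052 for Acads, and the difference of responses from -1.38 to 1.11 for Fads2 and -0.88 to 1.40 for Fads3. The libraries whose omission reversed them were WT resting 1 (Elovl1), KO resting 1 (Fads2, Fads3 and Slc25a20), WT stimulated 2 (Fads3) and KO stimulated 2 (Acads). The cause was not tested.

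Whether replicate numbers pair the libraries could not be decided. Correlations of same-numbered WT and KO libraries were 0.42, -0.20 and 0.42 at rest and -0.08, 0.06 and 0.14 after stimulation. Those of differently numbered libraries ran from -0.49 to 0.41 at rest and from -0.18 to 0.14 after stimulation. With 3 libraries per group, deviations from the group mean depend on each other, so these values cannot settle the question. With a replicate block, 5 members were lower (the 4 and Fads2) and 1, Scd1, was higher in stimulated KO cells, with 997 of all genes called. At rest 5 genes and no member were called with the block, and for the difference of responses 95 genes and no member.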
